A study of Mus musculus with 30 samples.

Results

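The genes described here are 45 genes of autophagy and mitochondrial quality control, chosen by name from both processes and matched to array probes by the platform's gene symbol. They were chosen with earlier results of these data known, so counts, ranks and p-values given for them are descriptive. Probes matched 42 of the 45, which were thus 42 of the 16593 genes named on the array, with 73 probes in all, and Optn, Atg9a and Park2 matched none. The study asked which hippocampal transcripts differ between mice that are and are not protected by the antiseizure drug phenytoin. Gene expression was profiled on single-colour Illumina bead arrays, 1 per mouse, in snap-frozen hippocampi of 30 male mice of the NMRI strain, an outbred stock, at 12 weeks of age. All had been phenotyped for their response to phenytoin with 6 Hz stimulation, an acute seizure model. Mice that phenytoin did not protect formed the resistant group (15 mice), those it protected the responder group (15 mice), and neither an untreated nor an unstimulated group was analysed here. The groups were therefore defined by a seizure test and differ in no allele that the labels give.

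Autophagy delivers cytoplasmic material to lysosomes. The Ulk kinases and the Becn1 and Pik3c3 lipid kinase complex start a membrane, a ubiquitin-like conjugation system attaches Atg8 proteins to it, and cargo receptors such as Sqstm1 link ubiquitinated cargo to those Atg8 proteins before the vesicle fuses with a lysosome. Mitophagy applies this route to mitochondria, whose fusion, fission and inner membrane proteases are further parts of their quality control, and neurons, which do not divide, depend on both processes for long-term survival.

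All 12588 probes with a detection p under 0.05 on at least 15 of the 30 arrays were tested with limma. This left 60 probes for 39 of the 45 genes, and 56 of the 60 were detected on all 30 arrays. Tfeb, the transcription factor that drives lysosomal genes, Bnip3, a mitophagy receptor, and Phb, a prohibitin of the inner membrane, had probes but none that was tested. The 13 untested probes were detected on at most 2 arrays each. Signals are background-corrected, quantile-normalised log2 values, and every difference is resistant minus responder on that scale. Each array detected between 12330 and 13223 probes. Of 12 listed markers of hippocampal neurons, 6 were tested, among them the dentate gyrus marker Prox1 (7.63 ± 0.30 and 7.58 ± 0.22 for resistant mice and responders, SD, n = 15 each) and Fibcd1 (11.6 ± 0.30 and 11.6 ± 0.43), while Neurod6 and Calb1 were not detected and 4 had no probe. All 6 tested markers lay higher in resistant mice, with a median difference of 0.05, and 0 had an unadjusted p under 0.05.

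Across the 60 probes, 31 lay higher and 29 lower in resistant mice, with a median difference of 0.0047 against 0.0070 over all probes. After median scaling the split was 42 higher and 18 lower. With Benjamini-Hochberg adjustment over all 12588 probes, limma called 0 of the 60 at an adjusted p under 0.05, where 0.00794% of all probes were called. At an unadjusted p under 0.05 the probes of Ulk2, Atg12 and Fundc1 lay higher, 3 of 60 beside 4.25% of all probes. Probes of Sqstm1, Wipi1, Lamp2 (2 probes) and Oma1 lay lower, 5 of 60 beside 3.30% of all probes. Differences were small, with an absolute size above 0.1 for 6 of the 60 (10%), compared with 24.3% of all probes, and a median 95% interval of ± 0.107. After median scaling the unadjusted calls were 6 higher and 3 lower. The count of 8 was sensitive to single animals. It was 2 without responder replicate 4, 3 without responder replicate 9, 4 without responder replicate 11 or resistant replicate 13, and 5 without any 1 of resistant replicates 1, 6, 7, 8, 12 and 15 or of responder replicates 1, 2, 6, 7, 8, 10 and 12.

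**Figure D1:**
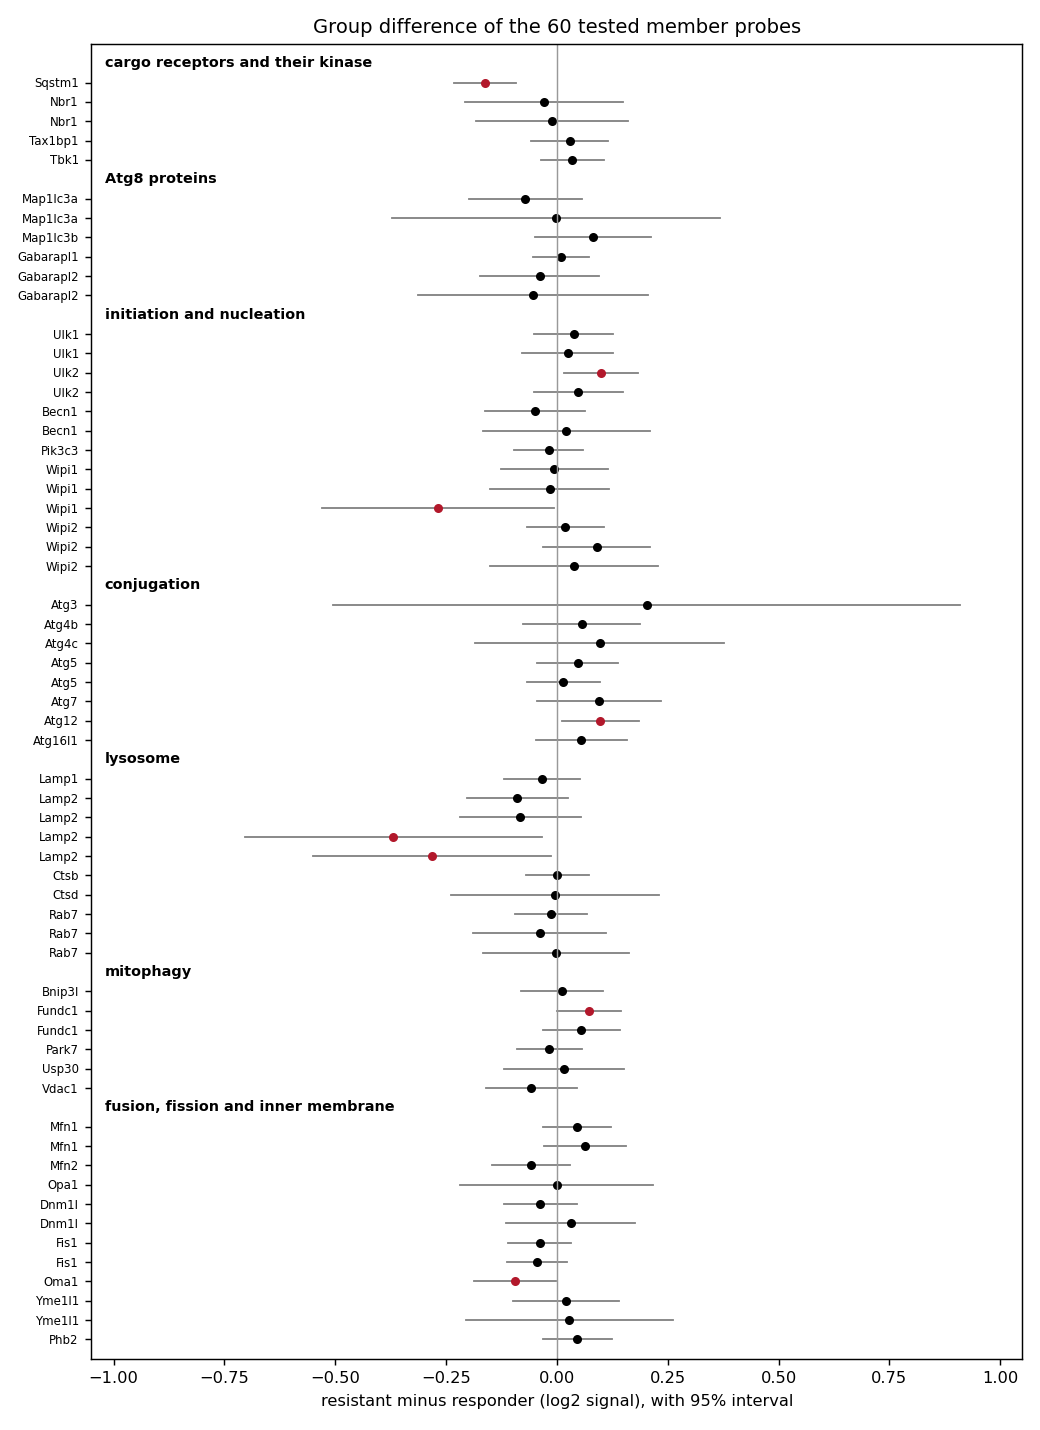
Resistant minus responder difference (x axis, log2 signal) of the 60 tested probes, named by gene and grouped by role. Points are limma estimates with 95% intervals, red where the unadjusted p was under 0.05. The intervals of 8 probes, among them Sqstm1 at -0.16, do not cross 0, while those of Atg3 and one Map1lc3a probe are the widest.

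The smallest p among all members belonged to Sqstm1 (p62), a cargo receptor that binds ubiquitinated cargo and Atg8 proteins and also holds Keap1, the inhibitor of the transcription factor Nrf2. Sqstm1 had 1 probe on the array (ILMN_2710705), and its gene lies at chr11:50200152-50210820 (GRCm38.p6). Its signal ran from 11.54 through a median of 11.73 to 11.94 in resistant mice and from 11.75 through 11.90 to 12.03 in responders. The ranges overlapped, but 8 of 15 resistant mice lay below every responder, 5 of 15 responders lay above every resistant mouse, and 1 of 15 resistant mice lay above the responder median. The means were 11.73 ± 0.11 and 11.90 ± 0.08 (SD, n = 15 each), a difference of -0.16 (SE 0.03), or 0.893 times the responder level (95% interval 0.851 to 0.938). This difference had the 4th smallest p of all 12588 probes (unadjusted p = 4.21e-05, limma adjusted p = 0.125) and a two-sided permutation p of 7e-05 over 100000 relabellings. The gene was listed with earlier results of these data known, so this rank and this permutation p are descriptive only. With a limma adjusted p of 0.125 the difference did not pass the adjusted threshold. Without resistant replicate 1, the resistant mouse of highest Sqstm1 signal, it did (difference -0.18, limma adjusted p = 0.0343). Leaving out the resistant mouse most opposed to a difference enlarges it by construction. In the other 29 fits with 1 mouse left out it did not pass (limma adjusted p up to 0.242). Hippocampal tissue was measured in bulk, so fewer cells of a type and less RNA per cell cannot be told apart for this or any other gene here.

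**Figure D2:**
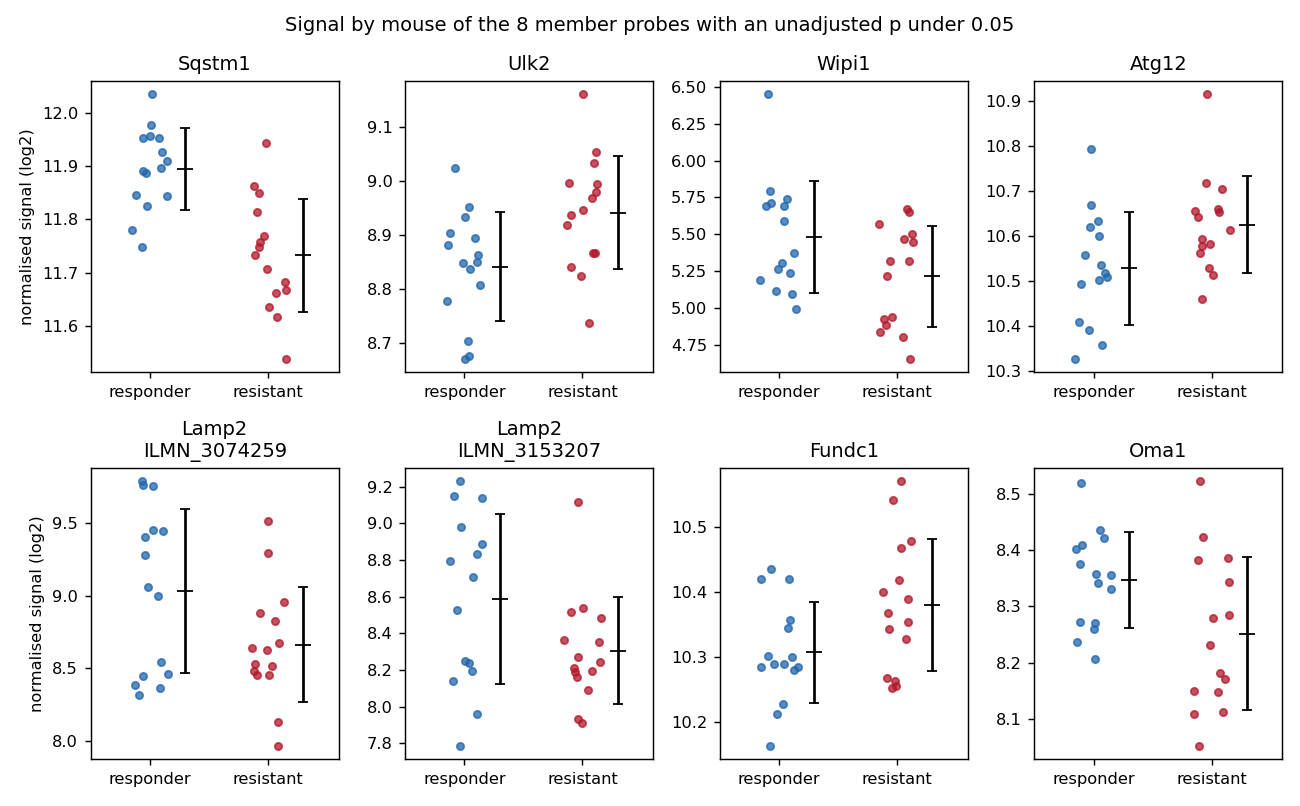
Normalised signal (y axis, log2) of each mouse for the 8 probes with an unadjusted p under 0.05, with responders in blue, resistant mice in red, and mean ± SD (n = 15) beside them. Each panel has its own range, and in every panel the groups overlap, with 8 resistant mice below all responders for Sqstm1.

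The labels give each mouse a running sample number that alternates between the groups, and the Sqstm1 difference was present in both parts of the numbering. Among numbers 1 to 16 resistant mice averaged 11.79 ± 0.10 and responders 11.89 ± 0.05 (n = 8 each), a difference of -0.10 with limma adjusted p = 0.768. Among numbers 17 to 30 the means were 11.67 ± 0.07 and 11.90 ± 0.10 (n = 7 each), a difference of -0.23 with limma adjusted p = 0.360. The change in the difference between the parts was -0.13 (SE 0.06, unadjusted p = 0.0569, limma adjusted p = 0.999), so the parts were not shown to differ. With the sample number as a covariate the Sqstm1 difference was -0.17 and passed the threshold (limma adjusted p = 0.0324).

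Sqstm1 was then set against 6 measures per mouse, namely the mean signals of marker genes of choroid plexus, oligodendrocytes, microglia and astrocytes, the mean of Nrf2 target genes, and the sample number. Over the 30 mice none of the 6 relations passed adjustment over this family. Sqstm1 gave r = 0.24 and rho = 0.30 with the choroid plexus mean (permutation p = 0.197 and 0.106, adjusted 0.592 and 0.332, r = 0.40 without the 2 mice farthest from the median). It gave r = 0.02 and rho = -0.01 with the Nrf2 target mean (permutation p = 0.927 and 0.957, adjusted 0.927 and 0.957, r = -0.10 without 2 mice). The relation to sample number was r = -0.32 and rho = -0.30 over all mice (permutation p = 0.0887 and 0.111, adjusted 0.532 and 0.332, r = -0.26 without 2 mice), with r = -0.75 within resistant mice and -0.13 within responders. Within numbers 1 to 16 and 17 to 30 it was -0.34 and -0.12. For oligodendrocytes, microglia and astrocytes r lay between -0.18 and 0.08, and the adjusted p was at least 0.66. Within resistant mice and within responders r was -0.39 and 0.34 for oligodendrocytes, 0.29 and 0.09 for microglia, and -0.51 and 0.34 for astrocytes, and these differences between groups were not tested. With the choroid plexus mean as a covariate the Sqstm1 difference was -0.16 (limma adjusted p = 0.215).

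The other cargo receptors and Tbk1, the kinase that phosphorylates several of them, did not pass the test. Tax1bp1, a receptor for ubiquitinated aggregates, differed by 0.03, the Nbr1 probes by -0.03 and -0.01, and Tbk1 by 0.03 (SE 0.03). Tbk1 ran from 10.15 through 10.28 to 10.42 in resistant mice and from 10.08 through 10.19 to 10.43 in responders, so the ranges coincided almost fully. The 250 bases before the Sqstm1 start site are shown because its difference had the smallest p of the 60 probes. They come from RefSeq (GRCm38.p6, minus strand, chr11:50210821-50211070), and a search found neither the motif CACGTG, the core bound by Tfeb and its relatives and identical on both strands, nor TGACNNNGC, the core of the antioxidant response element, on either strand.
Sqstm1 promoter: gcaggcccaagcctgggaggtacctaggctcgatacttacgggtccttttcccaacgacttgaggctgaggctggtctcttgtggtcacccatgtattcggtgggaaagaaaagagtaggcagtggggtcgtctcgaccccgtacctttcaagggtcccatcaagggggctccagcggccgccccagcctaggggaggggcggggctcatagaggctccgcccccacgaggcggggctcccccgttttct

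The Atg8 proteins, which coat the growing membrane and are bound by the receptors, showed no probe at an unadjusted p under 0.05. Map1lc3a (LC3A) differed by -0.07 on one probe and by -0.0013 on another, Map1lc3b (LC3B) by 0.08 (SE 0.06), Gabarapl1 by 0.01 and Gabarapl2 by -0.04 and -0.05. Map1lc3b ran from 9.89 through 10.00 to 10.32 in resistant mice and from 9.63 through 9.93 to 10.43 in responders, a wider range in the responders that enclosed all the resistant mice. The second Map1lc3a probe (ILMN_2686183) spread most of the 6 Atg8 probes within groups, with SDs of 0.49 and 0.58.

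Of the genes that start the membrane, Ulk2, a kinase of the Ulk1 family, lay higher on its brighter probe. Its signal ran from 8.74 through 8.95 to 9.16 in resistant mice and from 8.67 through 8.85 to 9.02 in responders, with 3 resistant mice above every responder and 3 responders below every resistant mouse. The difference was 0.10 (SE 0.04, unadjusted p = 0.0204, limma adjusted p = 0.604), and the second Ulk2 probe differed by 0.05. Ulk1, the paralogous kinase, differed by 0.04 and 0.02 on its probes. Becn1 (beclin 1), the scaffold of the lipid kinase complex, differed by -0.05 and 0.02, and Pik3c3, its catalytic subunit, by -0.02. Wipi1, a reader of the lipid that this complex makes, lay lower on its dimmest probe (ILMN_1216091), which was detected on 21 of 30 arrays. That probe ran from 4.66 through 5.32 to 5.67 in resistant mice and from 4.99 through 5.38 to 6.45 in responders, a difference of -0.27 (SE 0.13, unadjusted p = 0.0441, limma adjusted p = 0.656). The groups overlapped in part, with 6 resistant mice below every responder and 6 responders above every resistant mouse. The highest responder, at 6.45, lay 0.66 above the next mouse. With 1 mouse left out the difference was as small as -0.20, and over 12 alternative settings as small as -0.09. The brighter Wipi1 probes differed by -0.01 and -0.02. The 3 Wipi2 probes differed by 0.02, 0.09 and 0.04.

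All 8 tested probes of the conjugation system, for 7 of 7 genes, lay higher in resistant mice, with a median difference of 0.08 beside 0.0070 for all probes, although 0 of them passed adjustment. Only 1 of the 8 had an unadjusted p under 0.05. Of all 12588 probes, 6773 lay higher. Without background correction the median difference of the conjugation probes was 0.04. Under the 13 alternative settings all tested probes of this group stayed higher in 12, median scaling included, and 6 of 8 within sample numbers 17 to 30. The probe filters, the robust prior and the replicate block could not change these directions. The authors' processed values repeated the setting without background correction. Atg12, the ubiquitin-like protein joined to Atg5, ran from 10.46 through 10.61 to 10.92 in resistant mice and from 10.33 through 10.52 to 10.79 in responders. Resistant mice lay above the responder median in 13 of 15 cases, and 4 responders lay below every resistant mouse. The difference was 0.10 (SE 0.04, unadjusted p = 0.0292, limma adjusted p = 0.631). Atg7, the activating enzyme of both conjugation reactions, differed by 0.10 (SE 0.07, unadjusted p = 0.175), and Atg4c, a protease that trims Atg8 proteins, by 0.10 (SE 0.14). Atg16l1, which places the conjugation enzyme on the membrane, differed by 0.05, Atg4b by 0.06, and the Atg5 probes by 0.05 and 0.01.

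Atg3, the enzyme that hands Atg8 proteins to membrane lipid, varied more between mice than any other member. On the probe tested (ILMN_2651781) 15 mice read 6.28 or less and 15 read 7.58 or more, with no mouse in the gap of 1.30 between them. Only 43 of the 12588 probes had a wider gap. The upper set held 8 resistant mice and 7 responders, and the lower set 7 and 8. The range was 5.88 to 8.28 in resistant mice and 5.55 to 8.24 in responders, with medians of 7.73 and 6.28 that fell on either side of the gap. The group difference of 0.20 had an SE of 0.35. The residual SD of this probe was at the 99.6th percentile of all tested probes, and the other Atg3 probes were detected on 2 and 0 arrays, so no second probe was available to compare with. What separates the 2 sets of mice was not tested.

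**Figure D3:**
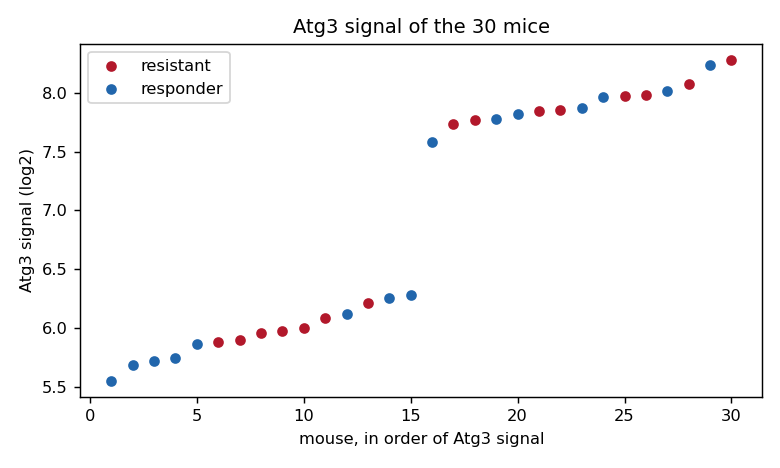
Atg3 signal (y axis, log2, probe ILMN_2651781) of the 30 mice in rank order (x axis), resistant in red and responders in blue. The mice form 2 sets of 15, up to 6.28 and from 7.58, and both groups occur in both sets.

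Promoter sequence was available for 37 of the 45 genes in the RefSeq table. Within 250 bases before the start site, CACGTG occurred for 7 of these 37 genes (Atg3, Atg5, Atg7, Bnip3, Ctsd, Lamp1 and Phb). By promoter this was 14.6% of 48 member promoters, compared with 6.02% of all 32851 promoters in the table. TGACNNNGC occurred for 4 genes (Ctsd, Rab7, Tax1bp1 and Ulk2), or 8.33% of member promoters against 10.2% of all. Atg3 is shown for its 2 copies of CACGTG. Lamp1, a lysosomal membrane protein, is shown for its 4, with 9 to 55 bases between each copy and the start site. CACGTG is in capitals in both, and both sequences are from the plus strand, Atg3 at chr16:45158579-45158828 and Lamp1 at chr8:13158911-13159160 (GRCm38.p6).
Atg3 promoter: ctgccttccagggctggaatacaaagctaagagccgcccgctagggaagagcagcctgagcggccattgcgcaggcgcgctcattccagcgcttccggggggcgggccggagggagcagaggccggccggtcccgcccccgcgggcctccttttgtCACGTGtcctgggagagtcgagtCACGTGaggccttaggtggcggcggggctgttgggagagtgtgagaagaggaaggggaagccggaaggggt
Lamp1 promoter: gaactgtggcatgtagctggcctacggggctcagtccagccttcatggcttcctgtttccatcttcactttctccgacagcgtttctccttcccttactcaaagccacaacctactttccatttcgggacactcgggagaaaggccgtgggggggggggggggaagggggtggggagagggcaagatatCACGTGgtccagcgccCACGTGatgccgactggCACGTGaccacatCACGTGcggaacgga
These letters describe the sequence only, and the expression data hold no measure of binding.

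Among lysosomal genes, 9 of 10 tested probes lay lower in resistant mice, with a median difference of -0.04, and 0 passed adjustment. The 10 probes covered 5 genes, with 4 probes for Lamp2 and 3 for Rab7. On the brightest probe of each, 4 of the 5 genes lay lower. Of all 12588 probes, 5815 lay lower. The split varied with the setting, with 6 of 10 lower after median scaling. It was 7 of 10 without background correction, with the sample number as a covariate and within each part of the numbering. Lamp1 differed by -0.03 (SE 0.04), Ctsb, a cysteine protease of the lysosome, by 0.0003, Ctsd, an aspartic protease, by -0.01, and Rab7, the GTPase that guides fusion with lysosomes, by -0.01, -0.04 and -0.0015. Lamp1 lay at 0.0068 after median scaling.

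Lamp2, a lysosomal membrane protein needed for fusion and for chaperone-mediated autophagy, was measured by 4 probes that the platform assigns to different transcript records. The brighter probe for NM_001017959 (ILMN_3074259) ran from 7.97 through 8.62 to 9.51 in resistant mice and from 8.31 through 9.06 to 9.79 in responders. Its difference was -0.37 (SE 0.16, unadjusted p = 0.0317, limma adjusted p = 0.636), with 2 of 15 resistant mice above the responder median, 2 below every responder and 3 responders above every resistant mouse. The second probe for that record (ILMN_3153207) ran from 7.91 through 8.25 to 9.12 and from 7.79 through 8.71 to 9.23, a difference of -0.28 (SE 0.13, unadjusted p = 0.0401). On both the groups overlapped over most of their range. The probes for NM_010685 differed by -0.09 and -0.08 (unadjusted p = 0.118 and 0.227).

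The Lamp2 signals moved with choroid plexus markers over the mice. The mean of 10 tested markers of 15 listed, among them Ttr, Kl, Clic6 and Folr1, was 7.77 ± 1.49 in resistant mice (5.36 to 9.87) and 8.62 ± 1.89 in responders (5.86 to 10.6). All 10 markers lay lower in resistant mice, 0 of them at an unadjusted p under 0.05, Trpv4 was not detected and 4 had no probe. For ILMN_3074259 the relation to this mean had r = 0.92 and rho = 0.96 (permutation p = 1e-05 for both, the smallest that 100000 permutations can give), r = 0.90 without the 2 mice farthest from the median, 0.86 within resistant mice and 0.95 within responders. For ILMN_3153207 r was 0.85 and rho 0.88 (permutation p = 1e-05 for both), and r = 0.87 without those 2 mice. For the NM_010685 probes r was 0.72 and 0.65 and rho 0.69 and 0.65 (permutation p = 1e-05 and 0.00021 for r, 5e-05 and 0.00019 for rho), with r = 0.70 for each without 2 mice. Within sample numbers 1 to 16 and 17 to 30 the 4 r values lay between 0.54 and 0.94. In limma with group as a term, the slope of Lamp2 on the choroid plexus mean passed adjustment over all probes on 4 of 4 probes (adjusted p between 2.29e-11 and 0.00545). This fit was added after seeing the data. No other tested member probe passed in that fit, so 4 of 60 rose with this mean and 0 fell, where 3.45% and 1.20% of all probes did. Gabarapl1 had the opposite sign, with r = -0.51 and rho = -0.55 (permutation p = 0.0031 and 0.00176) and r = -0.55 without the 2 mice. Its r was -0.21 within resistant mice, -0.71 within responders, -0.50 within numbers 1 to 16 and -0.53 within 17 to 30, and the adjusted p of its slope was 0.0954 in limma. With the choroid plexus mean as a covariate the group difference of ILMN_3074259 was -0.15 (SE 0.07, unadjusted p = 0.0539) and that of ILMN_3153207 -0.12 (unadjusted p = 0.134).

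**Figure D4:**
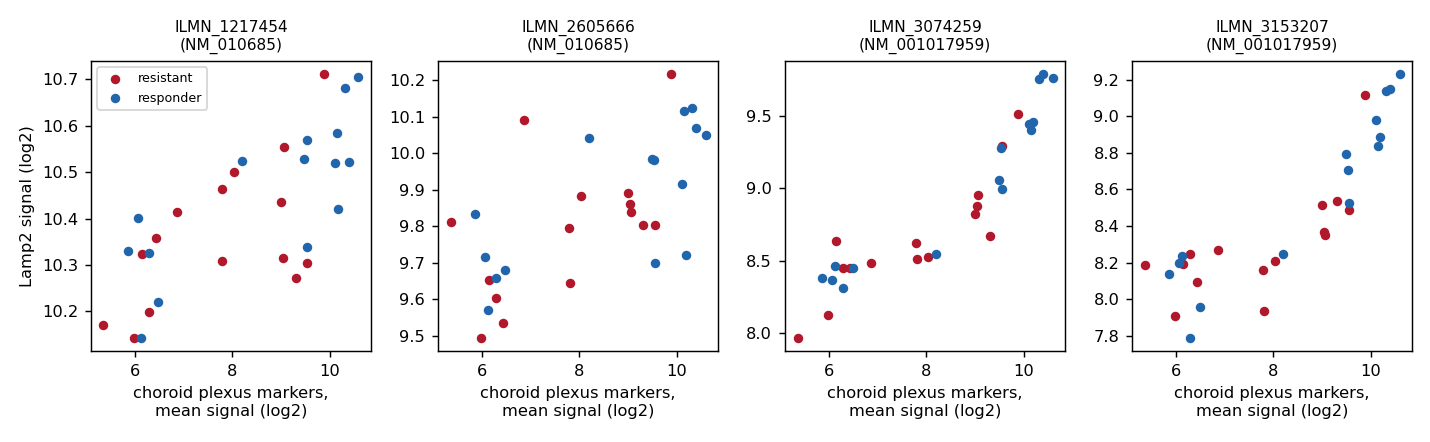
Lamp2 signal (y axis, log2) of the 4 probes against the mean signal of 10 choroid plexus markers (x axis, log2), 1 point per mouse, resistant in red and responders in blue. The 2 probes for NM_001017959 follow the marker mean most closely, with r = 0.92 and 0.85, and both groups lie along the same band.

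Sample number, whose meaning for array handling the labels do not give, went with single probes of Ctsd, Gabarapl2 and Rab7. In limma with group as a term, slopes on sample number passed adjustment over all probes for Ctsd (adjusted p = 0.00372) and the dimmer Gabarapl2 probe (adjusted p = 0.0208), 2 of 60 rising and 0 falling beside 0.866% and 0.326% of all probes. Ctsd, read on 1 dim probe (5.67 to 6.87 over the 30 mice), stepped between the parts of the numbering. Its mean was 5.96 ± 0.20 in resistant mice and 6.02 ± 0.18 in responders among numbers 1 to 16 (n = 8 each), and 6.55 ± 0.17 and 6.49 ± 0.15 among numbers 17 to 30 (n = 7 each). The lowest value of the later part, 6.29, was just under the highest of the earlier part, 6.31. The parts differed by 0.53 (SE 0.07, limma adjusted p = 1.98e-05), and within them Ctsd gave r = -0.19 and 0.27 with sample number. Rab7 differed between the parts by 0.12 on its brightest probe (SE 0.03, limma adjusted p = 0.0486). On its other probes the parts differed by -0.04 and 0.05 (limma adjusted p = 0.823 and 0.825). Ctsd and this brightest Rab7 probe were the 2 member probes called between the parts, beside 2.11% of all probes. Both this comparison and the slopes were added after seeing the data, and no label gives the cut between 16 and 17. Their p-values are therefore descriptive only. The dimmer Gabarapl2 probe had r = 0.65 and rho = 0.62 with sample number (permutation p = 0.00014 and 0.00028), r = 0.62 without the 2 mice farthest from the median, and r = 0.73 and 0.48 within the parts. It was detected on 20 of 30 arrays, and the brighter Gabarapl2 probe sloped the other way and did not pass (slope -0.0027, limma adjusted p = 0.783). In all, 120 such relations were computed, 60 probes against both measures. Each part of the numbering held both groups, and the group difference of Ctsd was -0.01 (SE 0.12).

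**Figure D5:**
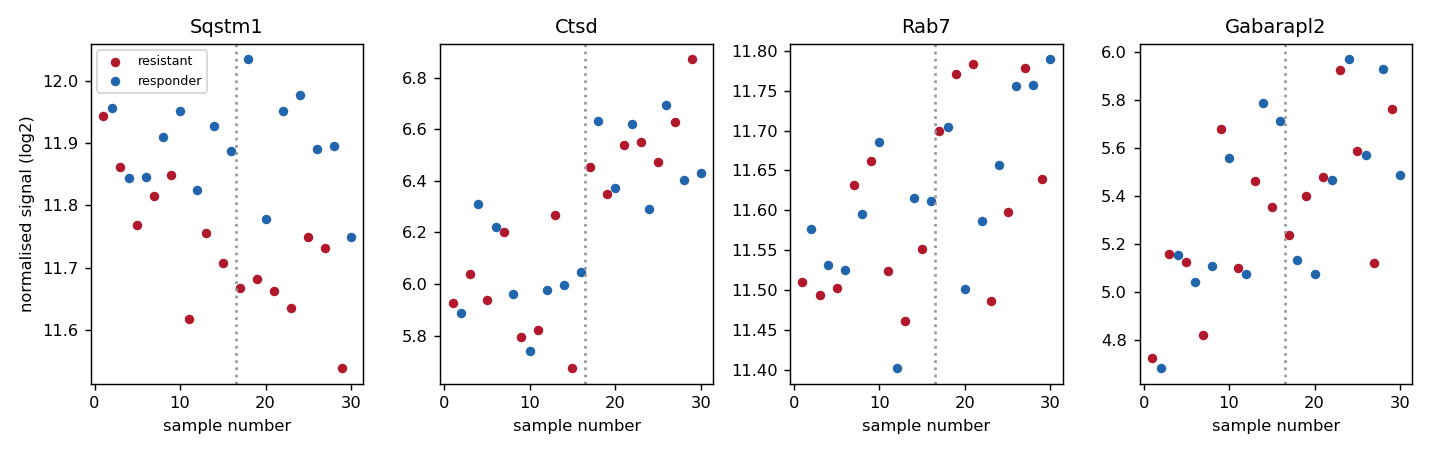
Normalised signal (y axis, log2) against sample number (x axis) for Sqstm1, Ctsd, the brightest Rab7 probe and the dimmer Gabarapl2 probe, resistant in red and responders in blue, with a dotted line between numbers 16 and 17. Ctsd steps up by 0.53 between the parts in both groups, while for Sqstm1 resistant mice lie mostly below responders on both sides.

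Of the genes that mark mitochondria for removal, Fundc1, an outer membrane receptor that binds Atg8 proteins, lay higher on its brighter tested probe. It ran from 10.25 through 10.37 to 10.57 in resistant mice and from 10.16 through 10.29 to 10.44 in responders, with 4 resistant mice above every responder. The difference was 0.07 (SE 0.04, unadjusted p = 0.0482, limma adjusted p = 0.657), and the second tested probe differed by 0.06. Vdac1, the outer membrane channel that is ubiquitinated during mitophagy, differed by -0.06 (SE 0.05). Bnip3l, a receptor related to Bnip3, differed by 0.01, Park7, a protein that protects against oxidative stress, by -0.02, and Usp30, a deubiquitinase of the outer membrane, by 0.02.

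Among genes of mitochondrial fusion, fission and the inner membrane, Oma1, a stress-activated protease that cleaves Opa1, lay lower. It ran from 8.05 through 8.23 to 8.52 in resistant mice and from 8.21 through 8.36 to 8.52 in responders, so the highest values were alike while 7 of 15 resistant mice lay below every responder. The difference was -0.09 (SE 0.05, unadjusted p = 0.0451, limma adjusted p = 0.657), with 4 of 15 resistant mice above the responder median. Mfn2, a fusion GTPase of the outer membrane, differed by -0.06 (SE 0.04), and its paralogue Mfn1 by 0.04 and 0.06. Opa1, the fusion GTPase of the inner membrane, differed by -0.0006, and the protease Yme1l1, which also cleaves it, by 0.02 and 0.03. Dnm1l (Drp1), the fission GTPase, differed by -0.04 and 0.03 on probes for different transcript records, and Fis1, a fission adaptor, by -0.04 and -0.05. Phb2, a prohibitin that forms a scaffold in the inner membrane, differed by 0.05. Of the 16 genes with several tested probes, 14 had all probes on the same side of 0, and Becn1 and Dnm1l did not.

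Further genes of the same pathways were taken from 5 lists of 185 genes, of which 142 were tested, each on its brightest probe. Limma called 0 of them at an adjusted p under 0.05, and at an unadjusted p under 0.05 there were 5 higher and 6 lower, beside 4.48% and 3.13% of all named genes. The lists were chosen with earlier results of these data known, and Vamp8 is among the 6 lower, so these counts are descriptive only. Of 25 other autophagy genes, Tollip, a ubiquitin-binding adaptor, lay at 0.10 on its brightest probe and at -0.09 on its other, on opposite sides of 0. Zfyve1 (DFCP1), a marker of forming autophagosomes, lay at 0.17. Vcp, the segregase p97, lay at -0.12, and Vamp8, a SNARE of autophagosome fusion named after its value was seen, at -0.50. Of 26 genes of mTOR and AMPK signalling, Mlst8, a subunit of both mTOR complexes, lay at 0.10 and Rragd, a Rag GTPase that recruits mTORC1 to lysosomes, at -0.21. Ddit4, an mTORC1 inhibitor, lay at -0.13 (unadjusted p = 0.0638).

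Of 42 other lysosomal genes, 3 lay lower and 0 higher at an unadjusted p under 0.05, beside 3.13% and 4.48% of all named genes. Regardless of p, 24 lay lower and 18 higher, with a median difference of -0.01. Psap (prosaposin), the precursor of sphingolipid activators, measured 13.5 ± 0.11 in resistant mice and 13.7 ± 0.08 in responders, a difference of -0.11 (SE 0.03, limma adjusted p = 0.395). Grn (progranulin), a lysosomal growth factor that binds prosaposin, differed by -0.09, and Npc2, a cholesterol carrier, by -0.20. With the choroid plexus mean as a covariate these differences were -0.10 for Psap, -0.10 for Grn and -0.09 for Npc2, and that of Vamp8 was -0.27. The limma unadjusted p was then 0.00836 for Psap and 0.0201 for Grn, but 0.168 for Npc2 and 0.116 for Vamp8. Npc2 and Vamp8 gave r = 0.78 and 0.72 with this mean, Psap and Grn 0.38 and -0.07. Over the 13 alternatives Psap and Npc2 stayed lower, while Grn lay at 0.02 in 1 of them. Of 9 genes of the Keap1 and Nrf2 axis, Gclm, a subunit of glutamate cysteine ligase, lay at 0.10, Prdx1, a peroxiredoxin, at -0.08 and Nqo1, a quinone reductase, at -0.15 (unadjusted p = 0.0332, 0.108 and 0.139).

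Of 40 other genes of mitochondrial quality control, 1 lay higher and 0 lower at an unadjusted p under 0.05, beside 4.48% and 3.13% of all named genes. That gene was Mul1, an outer membrane E3 ligase, at 0.98 (SE 0.22, limma adjusted p = 0.163). It passed the threshold in 1 of the 13 alternatives, within sample numbers 17 to 30 (1.30, limma adjusted p = 0.0452). Pink1, the kinase that starts ubiquitin-dependent mitophagy, differed by 0.07 on its brighter probe (unadjusted p = 0.172) and by -0.22 on its dimmer one (unadjusted p = 0.00072), so its probes lay on opposite sides of 0. Fkbp8, a mitophagy receptor, differed by -0.06 and Spg7 (paraplegin), an inner membrane protease subunit, by -0.10 (unadjusted p = 0.057 and 0.0657).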

How the data were processed

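Whole hippocampi of 30 mice were profiled, with 1 array per mouse and groups taken from the sample titles. The authors deposited a table of log2 signals that were not normalised, with a detection p-value per probe and array. They also deposited processed log2 values, which equal the quantile-normalised signals of the first table to within 6e-09. The submitters' processing notes name lumi, with no version. No aligner or genome build applies, and beads per probe were not used here, so the number of arrays limits the precision.

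The log2 signals were turned back into linear values and passed through neqc in limma 3.58.1 (R 4.3.3), with the background inferred from the detection p-values and an offset of 16, then quantile-normalised and log2-transformed. Probes with a detection p under 0.05 on at least 15 arrays were fitted with lmFit and eBayes with an intensity trend, without covariates, and the Benjamini-Hochberg adjustment ran over all 12588 probes. Array medians before normalisation ran from 7.06 to 7.38. Permutation tests were two-sided with 100000 resamples, in Python 3.11.15 with NumPy 2.4.6. Motifs were counted in RefSeq promoters of GRCm38.p6. Entrez identifiers of 23962 probes were in the RefSeq gene table.

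The members, the lists and the settings were chosen with earlier results of these data known. Named members are every Sqstm1 probe, member probes with an unadjusted p under 0.05, the 2 genes of smallest p per role, the 5 probes of largest SD, the 3 smallest p of each further list, Pink1 and Mul1. Other members are given by their differences, and Vamp8 was added after its value was seen. Marker lists of oligodendrocytes, microglia, astrocytes, striatum and erythrocytes had 13, 11, 10, 6 and 3 tested genes, with 0 past an adjusted p of 0.05 in limma and 1, 0, 0, 1 and 0 at an unadjusted p under 0.05. In the same order 11, 5, 4, 4 and 2 of them lay higher in resistant mice, with a median difference of 0.14 for oligodendrocytes. Alternatives were median scaling, omitting the background correction, using the authors' processed values, no or a stricter probe filter, array weights, a robust prior, the replicate number as a block, 3 covariates, both parts of the sample numbering and each mouse left out. The interaction, the comparison of later with earlier sample numbers and the slopes were added after seeing the data. The fits were tested on simulated data.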

Additional observations from a re-analysis of the deposited data

How the results depend on the processing

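Across 13 alternatives, 247 of 258 results for the 20 named probes kept their direction and side of the threshold, as did 587 of 600 with 1 mouse left out. For every named probe but Sqstm1 the limma adjusted p stayed at 0.348 or more, so for them these counts record direction only. Directions could not change under the probe filters, the robust prior or the replicate block. The authors' processed values repeated the setting without background correction, so these counts overstate the number of separate checks. The number of member probes past an adjusted p of 0.05, 0 in the main setting, was 1 with the sample number as a covariate and 0 to 1 with mice left out, that probe being Sqstm1 (-0.17 with the covariate, -0.18 to -0.15 with mice left out). The number at an unadjusted p under 0.05 was 4 within sample numbers 1 to 16 and 2 to 8 with mice left out. Signs reversed for 6 probes. The second Map1lc3a probe (Map1lc3a ILMN_2686183), at -0.0013, lay at 0.0227 with median scaling, 0.0334 with array weights, 0.0760 with the choroid plexus covariate and 0.0751 within numbers 1 to 16, and between -0.0661 and 0.0889 with mice left out. Within numbers 1 to 16 Becn1 ILMN_3018758 lay at 0.10, Lamp1 ILMN_1237208 at 0.0272 and Mfn2 ILMN_2641278 at 0.0151. Within numbers 17 to 30 Atg3 ILMN_2651781 lay at -0.56 and Atg4c ILMN_2914796 at -0.18, and Lamp1 lay at 0.0068 with median scaling. The cause was not tested. Median scaling moved the split of unadjusted calls from 535 higher and 416 lower to 924 and 229 (80.1% higher instead of 56.3%), and for members from 3 and 5 to 6 and 3. Same-numbered mice were not paired in the main fit. Their median r was 0.114, beside -0.018 for other pairs. Of the 15 pairs, 8 correlated above 0.1 and 4 correlated best with their own number. With the replicate block Sqstm1 lay at -0.16 (limma adjusted p = 0.155) and 6 member probes had an unadjusted p under 0.05. The median difference of the members stayed between -0.017 and 0.029. The median 95% interval of ± 0.107 limits what could be seen. Wipi1 and Gabarapl2 rest partly on dim probes, and Ctsd rests on 1 dim probe.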
